A study of Mus musculus with 16 samples.

Results

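The comparison described here asks whether the transcriptional response to an agonist of the aryl hydrocarbon receptor (AhR) was the same in neuronal and in non-neuronal nuclei of the mouse colon. It is the interaction of treatment and population: the log2 change from corn oil to agonist in neuronal nuclei minus the same change in non-neuronal nuclei. All 16 of the 16 libraries enter it, as 4 groups of 4 libraries. A positive difference means that the change with agonist was more upward (or less downward) in neuronal nuclei, and a negative difference that it was more upward in non-neuronal nuclei.

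All mice were C57BL/6, kept free of specific pathogens, and all of them, the controls included, carried AAV9-CaMKII-EGFPKASH, a vector that puts EGFP on the nuclear envelope of cells in which the CaMKII promoter is active. It was given into a vein 5 weeks before tissue collection. Either the AhR agonist 3-methylcholanthrene, a polycyclic aromatic hydrocarbon, or its vehicle corn oil was injected into the peritoneum 14 hours before collection. Nuclei came from the longitudinal muscle layer of the colon with the attached myenteric plexus, were gated on the DNA dye DAPI, and were sorted into EGFP-positive (called neuronal) and EGFP-negative (called non-neuronal) fractions. The 4 groups are therefore neuronal agonist, neuronal corn oil, non-neuronal agonist and non-neuronal corn oil. The EGFP-negative gate can hold neurons that the vector did not label, and the promoter sets which neurons are in the EGFP-positive gate. The dose, the age of the mice and whether a library comes from 1 mouse or a pool are not given in the labels used here, so the p-values measure only the spread between these libraries, which may be technical.

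AhR is a ligand-activated transcription factor that waits in the cytoplasm, enters the nucleus when it binds a ligand, pairs there with ARNT and binds DNA at a short core sequence, GCGTG. Its best known targets are Cyp1a1 and Cyp1b1, which oxidise polycyclic hydrocarbons, and 2 of its targets limit the receptor itself: Ahrr encodes a repressor that competes for ARNT, and Tiparp encodes an ADP-ribosyltransferase that marks AhR for removal. In the gut AhR senses dietary and microbial ligands, and the myenteric plexus is the nerve net between the muscle layers that drives peristalsis.

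Libraries held between 2663738 and 4902303 counts. Summed levels of 30 pan-neuronal genes lay between 7250.3 and 8473 CPM (count relative to the library's total count, a unit that allows libraries of unequal depth to be compared) in the 8 neuronal libraries and between 135 and 1091 CPM in the 8 non-neuronal libraries, so the sort separated the populations under both treatments. Smooth muscle markers summed to between 2258 and 4512 CPM in neuronal libraries, against 3959 to 27931 CPM in non-neuronal libraries, so the neuronal fraction was not free of them. Mitochondrially encoded genes took 1.77% to 6.11% of counts in neuronal libraries, 11.2% to 26.3% in non-neuronal corn oil libraries and 10.3% to 42.8% in non-neuronal agonist libraries. Non-neuronal agonist libraries 1 and 2 stand apart, with 42.8% and 33.3% of their counts mitochondrial. Neuronal agonist library 1 also stands apart. Its chi-square per degree of freedom against the other 3 libraries of its group was 70.8 to 83.0. Those 3 differed from each other by 19.9 to 34.8. Library 1 held counts for 17293 genes, against 20313 to 21247. Every pair of non-neuronal agonist libraries differed by 72.8 to 156 on the same measure. The median SD of log2 CPM over genes was 0.526 in neuronal corn oil and 0.985 in neuronal agonist libraries. It was 1.02 in non-neuronal corn oil and 1.40 in non-neuronal agonist libraries, the most uneven group. The fit takes 1 spread per gene over the 4 groups. In whole-population nuclei, fewer nuclei of a type and less RNA per nucleus of that type cannot be told apart. Levels of single genes below are CPM on library sizes scaled by the trimmed mean of M-values (TMM), in the order of libraries 1 to 4.

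The sequences just upstream of 4 AhR target genes are shown because these genes are the best known readout of the receptor and are described first. Only the Ahrr difference among them was under an unadjusted p of 0.05. Each is the 250 bases before the gene's RefSeq start on GRCm38.p6, written 5′ to 3′ on the gene's strand, with every GCGTG, or its reverse complement CACGC, in capitals. The windows are Cyp1a1 at chr9:57697363-57697612 on the plus strand, Ahrr at chr13:74292332-74292581 on the minus strand, Tiparp at chr3:65528197-65528446 on the plus strand and Cyp1b1 at chr17:79715062-79715311 on the minus strand.
Cyp1a1: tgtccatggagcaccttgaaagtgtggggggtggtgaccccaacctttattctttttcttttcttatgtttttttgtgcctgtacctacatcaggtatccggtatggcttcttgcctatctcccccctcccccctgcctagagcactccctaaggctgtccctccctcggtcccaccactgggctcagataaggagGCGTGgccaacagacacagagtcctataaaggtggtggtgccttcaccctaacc
Ahrr: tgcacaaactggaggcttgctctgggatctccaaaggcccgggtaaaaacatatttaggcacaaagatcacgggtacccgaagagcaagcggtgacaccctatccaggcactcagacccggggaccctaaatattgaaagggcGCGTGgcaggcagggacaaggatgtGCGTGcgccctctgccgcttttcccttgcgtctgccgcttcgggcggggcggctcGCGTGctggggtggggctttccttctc
Tiparp: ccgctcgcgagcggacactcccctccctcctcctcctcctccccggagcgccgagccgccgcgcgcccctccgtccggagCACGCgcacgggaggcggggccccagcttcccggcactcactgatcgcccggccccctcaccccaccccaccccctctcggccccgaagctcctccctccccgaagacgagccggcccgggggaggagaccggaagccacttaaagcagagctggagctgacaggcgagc
Cyp1b1: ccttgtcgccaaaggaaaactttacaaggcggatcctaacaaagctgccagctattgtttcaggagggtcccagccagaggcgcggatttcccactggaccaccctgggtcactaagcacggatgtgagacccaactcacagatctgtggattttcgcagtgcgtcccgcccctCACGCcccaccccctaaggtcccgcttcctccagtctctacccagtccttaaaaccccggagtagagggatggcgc
The Ahrr window holds 3 matches, which begin 107, 82 and 27 bases before the start. The other windows hold 1 match each, 54 bases before the start in Cyp1a1, 170 bases in Tiparp and 76 bases in Cyp1b1. Windows of this length were found for 6 AhR genes, and 5 of the 6 hold at least 1 match. Of all 32851 such RefSeq windows, 28.2% hold a match on either strand and 2.67% hold 3 or more. A match is a description of the letters and not a measured binding site. The gene positions given below are GENCODE spans over all transcripts of a gene, so the RefSeq start can lie inside them, and for Cyp1a1 the whole window, and for Tiparp its end, lies inside the span.

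No gene passed the test of the difference. Among 18566 genes tested with edgeR's quasi-likelihood test, 0 (0%) had a Benjamini-Hochberg adjusted p under 0.05, and the smallest adjusted p was 0.162. At an unadjusted p under 0.05 the test gave 1484 genes (7.99%), 898 with a more upward response in neuronal nuclei (4.84%) and 586 with a more upward response in non-neuronal nuclei (3.16%). The other tools gave 0 calls with limma-voom, 0 with limma-voom and quality weights, and 103 with DESeq2. Leaving out non-neuronal agonist library 3 gave 9 calls, and leaving out non-neuronal agonist libraries 1 and 2, those rich in mitochondrial counts, gave 7. The standard error (SE) of the difference had a median of 1.42 on the log2 scale, which gives a median 95% interval of 2.94 to either side, and of 0.738 in the 4642 genes with the highest levels. For a gene of median precision, a difference smaller than 2.94 could not be told from 0 with these libraries.

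Each population's own response, from the same fit, is the base of the difference. In neuronal nuclei 0 genes (0%) passed by edgeR, with 790 at an unadjusted p under 0.05 (4.26%; 1.92% of genes with agonist higher and 2.33% with agonist lower), 23 calls by DESeq2, 0 by limma-voom and 4 with quality weights. In non-neuronal nuclei 11 genes (0.0592%) passed. Cyp1a1 rose (0.00539% of genes), and 10 genes fell (0.0539%), among them Ndst4, Dnah1, Slc12a3 and Rab9b, which are described below. The fit of the 8 non-neuronal libraries alone and limma-voom with quality weights each called 2 genes, 2 higher and 0 lower with agonist, so these falls were called by neither. A minimum count of 30 gave 0 higher and 9 lower. With 1 library left out, the count of 11 ranged from 3, without non-neuronal corn oil library 4, to 50, without non-neuronal agonist library 3. Log2 responses of the 2 populations, across all 18566 genes, had a Pearson r of 0.0227 and a Spearman rho of 0.0257, and 51.2% of genes had the same sign in both. The 2 responses share no library, but genes are not independent replicates, so these values only describe the plot of one response against the other.

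**Figure D1:**
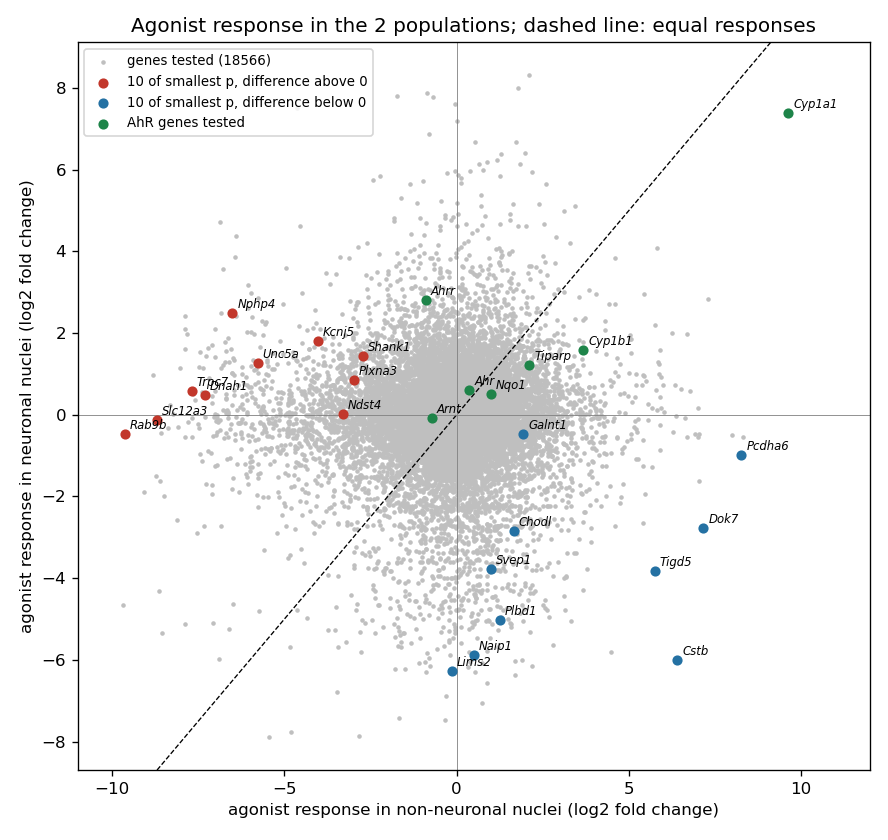
Log2 response to agonist in neuronal nuclei (y axis) against that in non-neuronal nuclei (x axis) for the 18566 genes tested, 1 point a gene, with AhR genes and the genes with the smallest p of the difference marked. The cloud shows no common slope (r = 0.0227); genes far from the origin often have a group at 0, where the fitted value depends on a prior count and is no measure of the fold.

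Among the AhR genes, Cyp1a1 levels separated by treatment in both populations, Ahrr was high in the neuronal agonist libraries, and those of Tiparp did in non-neuronal nuclei. Cyp1a1 (ENSMUSG00000032315, chromosome 9, 57687928 to 57703824, plus strand, GRCm38) was at 2.52, 6.13, 6.49 and 8.05 CPM in neuronal agonist libraries and at 0 in all 4 libraries with corn oil. That is 92 counts against 0, at least 30.1-fold higher, with the floor at 3 counts over the group. In non-neuronal nuclei it was at 11.7, 8.57, 163 and 165 CPM with agonist and at 0, 0, 0.299 and 0 CPM with corn oil. The groups did not overlap in either population, so all 8 agonist libraries held the transcript and 7 of the 8 corn oil libraries did not. The non-neuronal counts were 1385 against 1, a ratio of 1411 with a 95% counting interval of 253 to 55769.6. This rise passed the test (adjusted p = 0.00938), while the neuronal adjusted p was 0.407 in spite of the separation.

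Within the non-neuronal agonist group, Cyp1a1 was far higher in libraries 3 and 4 than in libraries 1 and 2. Libraries 1 and 2 are also those with the most mitochondrial counts, and the part of this in the result was not tested. The difference between the responses had an edgeR adjusted p of 0.974 for Cyp1a1, and 0.969 without libraries 1 and 2. On log2 CPM with a prior count of 2 the difference was -2.66, with an exact two-sided permutation p of 0.320. That test permutes treatment labels within each population over 4900 assignments, its smallest possible p is 0.000408, and it was run on 7 AhR genes. Its null is that treatment moved the gene in neither population, so it is no test of equal responses, least of all for a gene that separates in both.

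Ahrr (ENSMUSG00000021575, chromosome 13, 74211118 to 74292331, minus strand), the AhR repressor, was at 54.4, 55.6, 55.8 and 63.3 CPM in neuronal agonist libraries and at 7.59, 7.70, 2.42 and 14.9 CPM in neuronal corn oil libraries. In non-neuronal nuclei it was at 9.82, 4.51, 13.3 and 0.694 CPM with agonist and at 19.5, 2.63, 17.3 and 13.2 CPM with corn oil. All 4 neuronal agonist libraries lay above the other 12 libraries, and the 2 non-neuronal groups overlapped. The neuronal log2 change was 2.81 (SE 0.84) and the non-neuronal change -0.89 (SE 0.80). The difference was 3.70 (SE 1.15, 95% interval 1.32 to 6.08), with an unadjusted p of 0.00379 and an adjusted p of 0.432 over all genes, so it did not pass by edgeR. On log2 CPM with a prior count of 2 the difference was 3.98, with an exact permutation p of 0.006531, the only one of the 7 AhR genes tested this way under 0.05. Over 27 alternatives, DESeq2 and limma-voom among them, the difference lay between 3.29 and 4.37 and its adjusted p between 0.0732 and 1. No other annotated gene overlaps Ahrr.

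Tiparp (ENSMUSG00000034640, chromosome 3, 65528410 to 65555518, plus strand) was at 36.6, 77.9, 106 and 115 CPM in neuronal agonist libraries and 39.5, 42.6, 27.8 and 35.6 CPM with corn oil. Its non-neuronal levels were 74.1, 71.8, 80.01 and 92.1 CPM with agonist and 11.5, 17.6, 28.1 and 16.1 CPM with corn oil. The non-neuronal groups were far apart, whereas neuronal agonist library 1 lay within the range of its controls. The non-neuronal log2 change of 2.11 (SE 0.48) had an adjusted p of 0.0910. The neuronal change was 1.21 (SE 0.46), and the difference of -0.91 (SE 0.65, 95% interval -2.25 to 0.43) had an adjusted p of 0.774 and an exact permutation p of 0.3033. A pseudogene lies on the other strand within Tiparp, and the strand setting of the counting is not given in the sources used here.

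Cyp1b1 (ENSMUSG00000024087, chromosome 17, 79701537 to 79715061, minus strand) was at 1.26, 14.9, 15.1 and 23.3 CPM in neuronal agonist libraries and 7.33, 3.33, 6.28 and 1.05 CPM with corn oil. In non-neuronal nuclei it was at 0, 0.451, 47.3 and 68.5 CPM with agonist and 0, 0.751, 2.99 and 5.18 CPM with corn oil. As for Cyp1a1, non-neuronal agonist libraries 3 and 4 were high and libraries 1 and 2 were low, so the non-neuronal groups overlapped. The neuronal groups overlapped as well, with agonist library 1, at 1.26 CPM, within the range of the corn oil libraries. The difference was -2.08 (SE 1.87, 95% interval -5.95 to 1.78, adjusted p = 0.846), with an exact permutation p of 0.8196. Without non-neuronal agonist libraries 1 and 2 the Cyp1b1 difference was -3.07 (adjusted p = 0.407). The receptor gene Ahr was at 77.6, 69.6, 146 and 70.5 CPM in neuronal agonist, 54.7, 64.4, 52.2 and 67.7 CPM in neuronal corn oil, 19.3, 30.7, 57.3 and 51.4 CPM in non-neuronal agonist and 39.6, 21, 27.5 and 35 CPM in non-neuronal corn oil libraries. Ahr was detected in all 16 libraries, and its neuronal groups did not overlap. Its difference was 0.24 (SE 0.65, 95% interval -1.11 to 1.59). Its partner Arnt had a difference of 0.65 (SE 0.51, 95% interval -0.41 to 1.72). Nqo1, a quinone reductase under AhR and NRF2, had a difference of -0.47 (SE 2.05, 95% interval -4.71 to 3.77) with levels of 0 to 3.02, 0 to 1.45, 2.08 to 45.3 and 0.888 to 17.9 CPM in the 4 groups in the same order. Exact permutation p-values were 0.6265 for Ahr, 0.1127 for Arnt and 0.7992 for Nqo1. Cyp1a2 and Aldh3a1 did not pass the filter on low counts: Cyp1a2 had 1 count in all 16 libraries, and Aldh3a1 had 44 counts in non-neuronal agonist library 2, with 4 and 1 counts in 2 neuronal libraries.

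**Figure D2:**
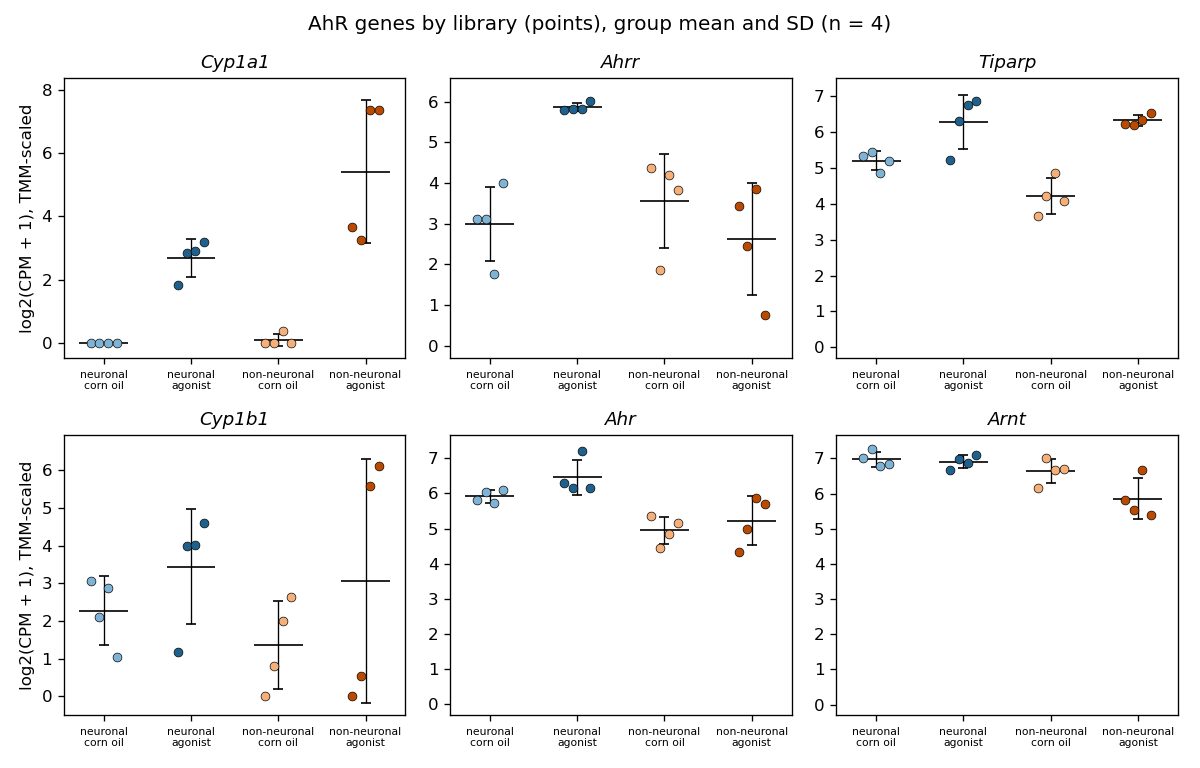
Levels of 6 tested AhR genes as log2(CPM + 1) (y axes) in each of the 16 libraries, 1 point a library, with the mean and SD of each group of 4, by population and treatment. Ahrr separates the neuronal agonist libraries (54.4 to 63.3 CPM) from the other 12, while Cyp1a1 separates agonist from corn oil in both populations.

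The wider list of AhR target genes had 16 of 22 members tested. None passed. At an unadjusted p under 0.05, 2 had a positive difference, Ahrr and Ereg (12.5%, beside 4.84% of all genes tested). With a negative difference there were 0, beside 3.16% of all genes tested. The list's median difference was -0.75 (bounded -0.53), beside 0.04 for all genes, with a median response of 0.77 in neuronal and 0.46 in non-neuronal nuclei. The bounded median, given where it differs, takes each gene that has a group at 0 from its pooled group levels with 3 counts in that group. Leaving out single libraries moved the median from -0.99 to 0.63, so its sign is not steady. Ereg, an EGF receptor ligand, had most of its neuronal agonist counts in 1 library: it was at 0.252, 0, 11.2 and 0.278 CPM in neuronal agonist libraries, with 1 count in all neuronal corn oil libraries. Of 15 tested AhR signalling components, such as Ep300 and Arnt2, 0 were under 0.05 in either direction, with a median of -0.16.

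The 10 genes with the smallest p among positive differences, leaving out predicted loci (symbols such as Gm16638, names ending in Rik, and pseudogenes), were Dnah1, Nphp4, Trpc7, Unc5a, Slc12a3, Ndst4, Kcnj5, Shank1, Rab9b and Plxna3, with adjusted p-values from 0.213 to 0.229. In 9 of the 10 the non-neuronal groups did not overlap, against 2.58% of all genes with agonist lower, and in 1 of the 10 the neuronal groups did not, against 1.2% of all genes with agonist higher. Both responses enter these differences: the non-neuronal response had an unadjusted p under 0.05 with agonist lower in all 10, and the neuronal response with agonist higher in 3, Nphp4, Shank1 and Kcnj5. Neuronal agonist library 1 held the highest of the 8 neuronal levels in 7 of the 10. Without it, the difference went from 4.13 to 3.24 for Shank1, from 3.82 to 3.03 for Plxna3 and from 5.84 to 3.94 for Kcnj5, with adjusted p-values of 0.488, 0.450 and 0.535. In 5 of them all 4 non-neuronal agonist libraries were at 0. Their corn oil level was higher in neuronal than in non-neuronal nuclei in 8 of the 10. Because these genes were picked by this contrast, the counts describe them and test nothing.

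Ndst4, a heparan sulfate N-deacetylase and N-sulfotransferase, was at 348, 409, 648 and 649.9 CPM in neuronal agonist libraries and 476, 438, 500.3 and 622 CPM in neuronal corn oil libraries. In non-neuronal nuclei it was at 1.13, 0.903, 10.5 and 6.94 CPM with agonist and 30.2, 25.9, 41.9 and 101 CPM with corn oil. The neuronal groups overlapped and the non-neuronal groups did not. Ndst4 fell in non-neuronal nuclei by 3.30 on the log2 scale (SE 0.56, adjusted p = 0.0220), and the difference was 3.31 (SE 0.74, adjusted p = 0.229). Shank1, a scaffold of the postsynaptic density, was at 3.02, 12.6, 2.09 and 1.85 CPM in non-neuronal agonist and 20.7, 34.9, 35.3 and 33.7 CPM in non-neuronal corn oil libraries, with neuronal levels of 28 to 354 and 35.6 to 82.2 CPM. Its difference was 4.13 (SE 0.95, adjusted p = 0.229), and it is among the 7 genes called without the libraries rich in mitochondrial counts. Plxna3, a semaphorin receptor subunit, was at 3.02, 1.35, 2.35 and 0.231 CPM in non-neuronal agonist and 27.2, 4.88, 10.2 and 12.4 CPM in non-neuronal corn oil libraries. The 2 Plxna3 groups did not overlap, while its neuronal levels did, at 99.9 to 392 and 64.1 to 127 CPM (difference 3.82, SE 0.89).

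The genes at 0 in every non-neuronal agonist library were Dnah1, Nphp4, Trpc7, Slc12a3 and Rab9b. Dnah1, a dynein heavy chain of the ciliary axoneme, was at 2.37, 4.51, 9.87 and 4.92 CPM in non-neuronal corn oil libraries, so the agonist level was at least 23.6-fold lower (adjusted p = 0.0265). Rab9b, a small GTPase, was at 0.888, 43.5, 16.1 and 48.9 CPM there, at least 118-fold above the agonist group (adjusted p = 0.0485). Slc12a3, a sodium-chloride cotransporter, was at 5.33, 21, 24.8 and 6.21 CPM there, at least 59.2-fold above the agonist group (adjusted p = 0.0485). These 3 genes fell in non-neuronal nuclei, and in neuronal nuclei they were present under both treatments: Dnah1 at 16.9 to 55.2 with agonist and 14 to 40.5 CPM with corn oil, Rab9b at 0.252 to 32.2 and 11.4 to 32.6 CPM, and Slc12a3 at 1.51 to 13 and 4.35 to 13.4 CPM. Trpc7, a receptor-operated cation channel, was at 2.07, 11.3, 3.29 and 11.7 CPM in non-neuronal corn oil libraries, at least 30.4-fold above agonist (adjusted p = 0.0603). Nphp4, a protein of the ciliary transition zone, was at 1.78, 7.13, 0 and 3.62 CPM there, and 1 of its 4 control libraries was at 0 as well. In neuronal nuclei Nphp4 was at 66.04, 19.5, 15.3 and 35.5 CPM with agonist and 8.38, 6.16, 5.08 and 4.45 CPM with corn oil, without overlap. Unc5a, a netrin receptor, had 3 counts with agonist against 156 with corn oil in non-neuronal nuclei, a ratio of 0.0196 (95% counting interval 0.00400 to 0.0583). Unc5a and Nphp4 each overlap a gene on the other strand, Hk3 and Kcnab2. Kcnj5, a subunit of G-protein-gated inward rectifier channels, was at 1.13, 0, 2.61 and 0.231 CPM in non-neuronal agonist and 4.44, 39.8, 10.8 and 15.3 CPM in non-neuronal corn oil libraries. In neuronal nuclei Kcnj5 was at 379.9, 18.8, 45.4 and 37.2 CPM with agonist, where library 1 stands apart, and at 33, 33.6, 23.9 and 47.3 CPM with corn oil.

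Pan-neuronal markers in the non-neuronal fraction are given beside these genes because 8 of the 10 are higher in neuronal nuclei. Summed pan-neuronal levels in the non-neuronal libraries were 135 to 767 CPM with agonist and 279.9 to 1091 CPM with corn oil, by library size, and the 2 groups overlapped. The totals include mitochondrial counts, which took 10.3% to 42.8% with agonist and 11.2% to 26.3% with corn oil. Levels of single genes are on TMM-scaled sizes instead. Non-neuronal agonist libraries held counts for 19683 to 22411 genes, against 22958 to 27705 genes in non-neuronal corn oil libraries, without overlap. The part of the pan-neuronal sums, mitochondrial counts and gene numbers in the result was not tested.

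The 10 genes with the smallest p among negative differences, chosen the same way, were Svep1, Cstb, Naip1, Galnt1, Chodl, Dok7, Pcdha6, Lims2, Tigd5 and Plbd1, with adjusted p-values from 0.162 to 0.409. Here the neuronal groups did not overlap in 6 of the 10 and the non-neuronal groups in 3 of the 10 (all genes, not overlapping: 2.42% with neuronal agonist lower and 1.01% with non-neuronal agonist higher). In 4 of them all neuronal agonist libraries were at 0. Svep1, an extracellular matrix protein, had the smallest p of all named genes. It was at 0.252, 0.219, 0.260 and 0.278 CPM in neuronal agonist libraries, 1 count in each, and at 2.36, 1.54, 2.18 and 9.41 CPM with corn oil. In non-neuronal nuclei it was at 121, 107, 201 and 157 CPM with agonist and 89.3, 73.6, 36.2 and 96.3 CPM with corn oil, so the groups separated in both populations and in opposite directions. The difference was -4.76 (SE 0.88, adjusted p = 0.162).

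Chodl, which encodes the membrane lectin chondrolectin, had the same pattern, at 0.252, 0, 0.260 and 0.555 CPM with agonist and 1.05, 4.62, 1.21 and 1.31 CPM with corn oil in neuronal nuclei. Its non-neuronal levels were 87.7, 104, 61.4 and 51.9 CPM with agonist and 22.5, 21, 13.8 and 39.4 CPM with corn oil (difference -4.49, SE 1.09, adjusted p = 0.258). Both Svep1 and Chodl were low in neuronal nuclei under either treatment, so the neuronal part of their difference rests on few counts. Galnt1, which starts mucin-type O-glycosylation, is the gene of this group with substantial levels in all libraries. It was at 174, 282, 129 and 153 CPM in non-neuronal agonist and 76.6, 35.3, 49.6 and 30.8 CPM in non-neuronal corn oil libraries, against 45.4, 42.5, 56.6 and 40.5 CPM and 87.7, 48.5, 58.5 and 62.2 CPM in the neuronal groups. The non-neuronal groups did not overlap and the neuronal groups did, with a difference of -2.41 (SE 0.57, adjusted p = 0.229).

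Lims2, a focal adhesion adaptor, Naip1, an innate immune sensor, Cstb, an inhibitor of lysosomal cathepsins, and Plbd1, a phospholipase B-like protein, were at 0 in all neuronal agonist libraries. Lims2 was at 1.83, 3.59, 2.18 and 2.88 CPM in neuronal corn oil libraries, at least 13.9-fold above the agonist group, and at 10.6 to 48 CPM with agonist and 5.63 to 54.9 CPM with corn oil in non-neuronal nuclei. Naip1 was at 0.524, 2.05, 3.87 and 1.57 CPM in neuronal corn oil libraries, at least 10.9-fold above agonist. It belongs to a family of near-identical copies, so its counts are uncertain. Cstb was at 0.524, 2.82, 1.93 and 3.40 CPM in neuronal corn oil libraries, at least 11.6-fold above agonist, and at 25.7, 0, 2.61 and 242 CPM with agonist and 0.592, 0.751, 1.50 and 0.259 CPM with corn oil in non-neuronal nuclei, where 1 agonist library holds most of the counts. Plbd1 was at 0.524, 1.03, 0.242 and 2.61 CPM in neuronal corn oil libraries, 17 counts in all, at least 5.78-fold above agonist. In non-neuronal nuclei the other 3 genes rest on single agonist libraries or few counts. Dok7, an activator of the muscle kinase MuSK, was at 0, 148, 0.784 and 3.01 CPM in those libraries, with library 2 far above the rest. Its adjusted p was 0.263, and 0.371 without libraries 1 and 2. Pcdha6, a clustered protocadherin that shares exons with its neighbours, was at 0, 0, 6.01 and 35.9 CPM there and at 0 in non-neuronal corn oil libraries. Tigd5, derived from a transposase, was at 0, 3.61, 2.61 and 18.5 CPM there, with 98 counts against 1. In neuronal nuclei Tigd5 was at 0, 0.657, 0.779 and 1.39 CPM with agonist and 33.8, 3.33, 1.21 and 3.14 CPM with corn oil. Neuronal corn oil library 1 held 129 of the 159 counts of its group.

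Smooth muscle markers, given beside the genes that were low in neuronal agonist libraries, summed to 2258 to 2658 CPM with agonist and 2941 to 4512 CPM with corn oil in neuronal libraries, by library size, and these ranges did not overlap. In non-neuronal libraries the sums were 3959 to 14753 CPM and 7273 to 27931 CPM. Neuronal agonist libraries also held counts for fewer genes, 17293 to 21247, than most neuronal corn oil libraries, 21063 to 26379. The part of either in these differences was not tested.

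**Figure D3:**
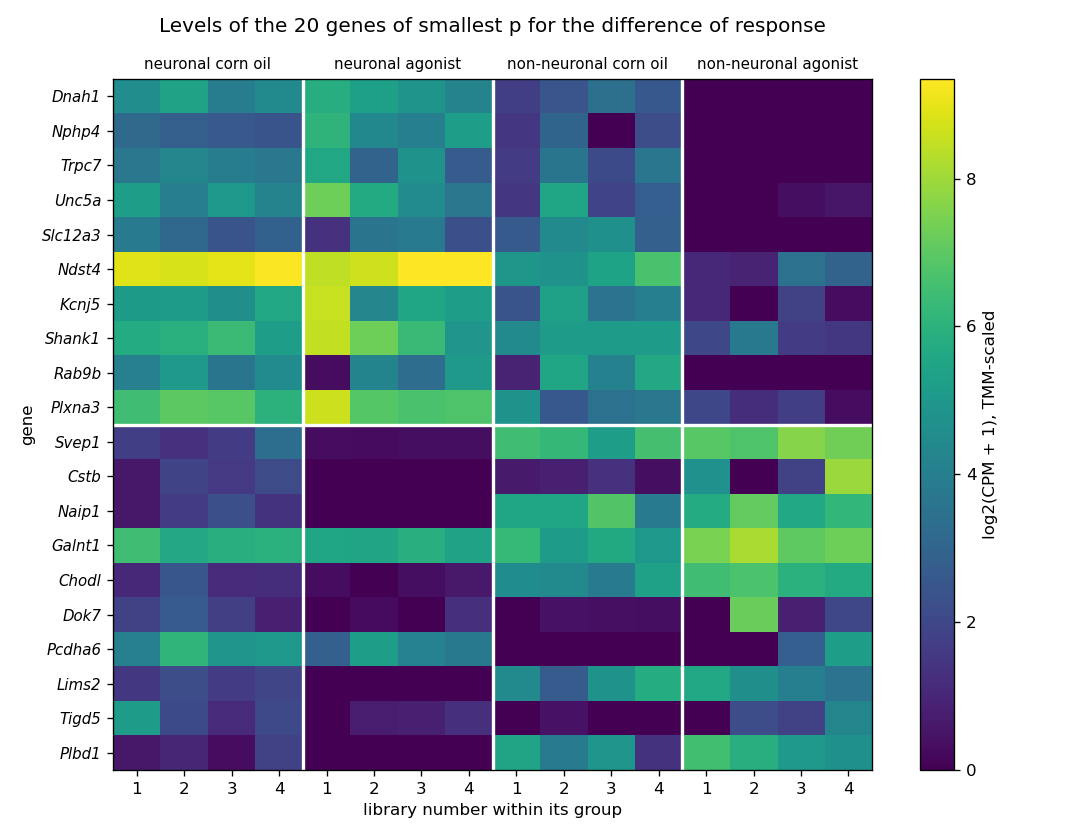
Levels of the 10 genes with the smallest p in each direction as log2(CPM + 1) (colour scale), with genes in rows and the 16 libraries in columns by group. Of the upper genes, 5 are at 0 in all 4 non-neuronal agonist libraries, while Ndst4 and Shank1 reach 10.5 and 12.6 CPM there. Of the lower genes, 4 are at 0 in all 4 neuronal agonist libraries, and Galnt1 is at 40.5 to 56.6 CPM there.

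Of the 898 genes with a positive difference at an unadjusted p under 0.05, 654 had only their non-neuronal response under that threshold, 105 only their neuronal response, 18 both and 121 neither. Of the 586 with a negative difference, 260 had only the non-neuronal response under it, 200 only the neuronal response, 12 both and 114 neither. A response is counted here only in the direction that makes up the difference. For a positive difference, the shares of all genes were 6.71% (non-neuronal, agonist lower) and 1.92% (neuronal, agonist higher). For a negative one they were 4.27% (non-neuronal, agonist higher) and 2.33% (neuronal, agonist lower). A group at 0 was present in 25.7% of the 898 genes and 27.6% of the 586, against 6.02% of all genes tested. Genes whose groups separated in both populations in opposite directions were few: 4 (0.0215%) were higher with agonist in neuronal and lower in non-neuronal nuclei, and 5 (0.0269%) the reverse. In neuronal nuclei alone, 1.20% of all genes separated with agonist higher and 2.42% with agonist lower. In non-neuronal nuclei alone the shares were 1.01% higher and 2.58% lower. Whether the counts of 4 and 5 exceed those of unrelated responses was not tested. These genes are named here after their values were seen. The 4 were Apbb1, Smad9, Slain1 and Bnip3, and the 5 were Svep1, Chodl, Hdac9, Pitpnm3 and 3110001I22Rik. Hdac9, a class IIa histone deacetylase, was at 49.4 ± 20.9 CPM with agonist and 112 ± 24.4 CPM with corn oil in neuronal nuclei (SD, n = 4 each), and at 42.5 ± 24.3 and 18.6 ± 6.09 CPM in non-neuronal nuclei. Smad9, a mediator of BMP signalling, was at 23.4 ± 9.12 CPM with agonist and 8.62 ± 4.23 CPM with corn oil in neuronal nuclei, and at 1.08 ± 1.12 and 9.27 ± 5.86 CPM in non-neuronal nuclei. Groups that separated in the same direction in both populations numbered 5 higher (0.0269%), Cyp1a1 among them, and 14 lower (0.0754%).

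Gene lists are described by counts and medians, and in every list 0 members passed the adjusted test of the difference. Cholesterol synthesis genes had a positive median difference of 0.81 over 24 of 24 members tested, beside 0.04 for all genes. Their median response was -0.11 in neuronal and -0.92 in non-neuronal nuclei, where 10 of the 24 had an unadjusted p under 0.05 with agonist lower and 0 with agonist higher, beside 6.71% and 4.27% of all genes. For the difference, 4 members (16.7%) were under 0.05 with a positive value and 0 with a negative one. The shares of all genes for the difference were 4.84% positive and 3.16% negative. Fdft1, which encodes squalene synthase, was at 29.5, 8.12, 3.40 and 25.5 CPM in non-neuronal agonist and 46.7, 52.2, 98.1 and 104 CPM in non-neuronal corn oil libraries, with no overlap. Its neuronal levels were 162, 93.3, 64.1 and 96 CPM with agonist and 77.8, 98.8, 94.5 and 83.4 CPM with corn oil, and the difference was 2.40 (SE 0.76, adjusted p = 0.432). Fdft1 overlaps Ctsb on the other strand. Ebp, a sterol isomerase, was at 0, 0, 0.784 and 0.231 CPM in non-neuronal agonist and 3.85, 19.1, 2.69 and 5.18 CPM in non-neuronal corn oil libraries, again without overlap, and at 0 to 11.7 CPM and 0.770 to 3.14 CPM in neuronal nuclei. Leaving out single libraries kept the list's median between 0.65 and 0.98.

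For 6 lists of neuronal genes the median difference was above the 0.04 of all genes, though not for each of them in every fit. The median was 0.53 for 30 pan-neuronal genes, 0.94 (bounded 0.87) for 17 TRP, acid-sensing and mechanical channels, 0.51 for 53 neurotransmitter receptors, 0.46 for 27 sodium and calcium channels, 0.22 for 39 potassium channels and 0.25 for 39 synaptic vesicle and release genes. At an unadjusted p under 0.05 the positive and negative counts were 4 and 0 for pan-neuronal genes, 3 and 0 for TRP and related channels, 6 and 3 for receptors, 4 and 1 for sodium and calcium channels, 6 and 1 for potassium channels and 1 and 1 for synaptic genes. Of all genes tested, 4.84% were positive and 3.16% negative at that threshold. The positive shares were 13.3% for pan-neuronal genes and 17.6% for TRP and related channels, and the synaptic shares of 2.56% each were under those of all genes. Without the 2 non-neuronal agonist libraries rich in mitochondrial counts, the median of all genes was 0.34, and that of sodium and calcium channels (0.08) and of synaptic genes (-0.06) fell under it. The medians of the other 4 lists were then 0.58 (pan-neuronal), 1.78 (TRP and related channels), 0.87 (receptors) and 0.61 (potassium channels). Leaving out single libraries took the pan-neuronal median from 0.01 to 1.26, and the medians of the potassium channel and synaptic lists crossed 0. The 21 enteric transmitter and peptide genes had a median of 0.02, with 3 members under 0.05 with a positive and 0 with a negative difference.

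Among these neuronal genes, Scn8a, the sodium channel Nav1.6, was at 5.29, 0.903, 2.61 and 0.231 CPM in non-neuronal agonist and 37.3, 30.03, 11.1 and 7.51 CPM in non-neuronal corn oil libraries, with neuronal levels of 265, 216, 104 and 93.8 CPM with agonist and 132, 149, 137 and 139 CPM with corn oil. The non-neuronal groups did not overlap. Its difference was 3.54 (SE 0.88, adjusted p = 0.271). Grik2, a kainate receptor subunit, was at 4.91, 4.51, 29 and 10.6 CPM in non-neuronal agonist and 57.7, 26.3, 35.9 and 112 CPM in non-neuronal corn oil libraries, and at 361, 277, 329.9 and 360.5 CPM and 251, 252, 235 and 275 CPM in neuronal nuclei (difference 2.61, SE 0.69, adjusted p = 0.377). The neuronal Grik2 groups did not overlap, by a small margin, with agonist higher, and the non-neuronal groups overlapped. Kcnd2, the A-type potassium channel Kv4.2, was at 0, 0, 0.784 and 0.694 CPM and 6.80, 1.50, 3.29 and 3.62 CPM in the non-neuronal groups, which did not overlap (difference 3.70, SE 1.03). Cacna1b, the N-type calcium channel, had a difference of 1.85 (SE 0.61, adjusted p = 0.450). Rbfox3, which encodes the neuronal marker NeuN, Calcb, which encodes a calcitonin gene-related peptide, and Cplx1, which encodes a regulator of synaptic release, were at 0 in all non-neuronal agonist libraries and at least 10.8-fold, 16.4-fold and 12.4-fold lower there than with corn oil. In the opposite direction, Grin2a, an NMDA receptor subunit, was at 56.7, 74.5, 5.23 and 0.926 CPM in non-neuronal agonist and 0, 9.01, 1.50 and 0 CPM in non-neuronal corn oil libraries, with overlap. Libraries 1 and 2 hold most of these counts, and without them the Grin2a difference went from -6.10 to -2.71 (adjusted p = 0.705). Except for Grin2a, group means of these genes were lower in non-neuronal than in neuronal nuclei under both treatments. Pan-neuronal sums and numbers of genes with counts in non-neuronal libraries are given above.

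Some lists of lipid, xenobiotic and stress genes had negative median differences and others did not. The median was 0.07 for 14 LXR and cholesterol efflux genes. It was -0.17 for 14 cytochromes P450 of families 2 to 4, and 1.64 without the 2 libraries rich in mitochondrial counts. For 18 heat shock and chaperone genes it was -0.31, and 0.18 without these libraries. Fatty acid oxidation and PPAR genes had a median difference of -0.86 over 23 members, with 0 positive and 4 negative at an unadjusted p under 0.05. Phase II conjugation enzymes had a median of -0.98 with 0 positive and 3 negative of 22. Acute-phase and STAT3 genes had a median of -1.16 (bounded -0.52) with 0 and 3 of 15, interferon-stimulated genes -0.61 (bounded -0.41) with 0 and 2 of 26, and p53 target genes -0.40 with 0 and 2 of 19. The shares under 0.05 with a negative difference were 17.4%, 13.6%, 20%, 7.69% and 10.5% in the same order, beside 3.16% of all genes, and with a positive one 0% beside 4.84%. Without the same 2 libraries the medians were -0.59, -0.58, -0.89, -1.06 and -0.34. Cdkn1a, the cell cycle inhibitor p21, was at 64.2, 132, 66.7 and 58.3 CPM in non-neuronal agonist and 5.33, 4.51, 17.6 and 9.32 CPM in non-neuronal corn oil libraries, without overlap, and at 0, 7.44, 0.260 and 4.72 CPM and 1.57, 0.513, 7.49 and 6.01 CPM in neuronal nuclei. Its difference was -3.44 (SE 1.37, adjusted p = 0.554). Socs3, an inhibitor of cytokine signalling, was at 0 in neuronal agonist libraries and at 0, 2.82, 1.21 and 0.261 CPM in neuronal corn oil libraries, with overlap. In non-neuronal nuclei Socs3 was at 3.02, 36.1, 37.7 and 69 CPM with agonist and 5.33, 7.88, 33.8 and 5.18 CPM with corn oil.

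Among immediate early genes 2 of 21 (9.52%) were under an unadjusted p of 0.05 in each direction. Of all genes tested, 4.84% were so with a positive and 3.16% with a negative difference. Jun was at 30.2, 47.5, 28.3 and 44.1 CPM in neuronal agonist and 6.02, 7.44, 14.5 and 17.8 CPM in neuronal corn oil libraries, which did not overlap, and at 43.8, 92.5, 148 and 87 CPM and 63, 71.3, 119.9 and 115 CPM in non-neuronal nuclei, which did (difference 1.70, SE 0.69, adjusted p = 0.554). An antisense gene, Junos, overlaps Jun. Npas4, an activity-dependent factor, was at 18.9, 26.7, 8.31 and 13.6 CPM and 29.3, 30.8, 34.1 and 22 CPM in neuronal nuclei and at 31, 82.1, 70.3 and 26.2 CPM and 8.28, 11.6, 33.5 and 7.77 CPM in non-neuronal nuclei, in the same order of treatment (difference -2.55, SE 0.91, adjusted p = 0.497). The clock gene Per1 had a difference of -2.15 (SE 0.92, adjusted p = 0.572).

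Markers of other cells differed from list to list. The median was -2.16 (bounded -1.04) for 14 blood endothelial markers, -0.87 for 8 lymphatic endothelial markers, -0.98 (bounded -0.96) for 22 epithelial markers and -0.25 for 21 smooth muscle markers. It was 0.20 for 8 pericyte markers and 0.36 (bounded -0.03) for 15 macrophage markers. Without the 2 libraries rich in mitochondrial counts the median went from -0.85 to 1.93 for 10 lymphocyte markers, from -0.37 to 0.75 for 11 enteric glia markers and from 0.36 to -0.22 for macrophage markers. Lyve1, a hyaluronan receptor of lymphatic endothelium, was at 0.252, 0.219, 0.260 and 0.555 CPM in neuronal agonist and 0.524, 6.16, 1.21 and 2.09 CPM in neuronal corn oil libraries, against 91.8, 442, 310.4 and 373 CPM and 274, 161, 281 and 369 CPM in non-neuronal nuclei. Its difference of -3.02 (SE 0.87, adjusted p = 0.413) came with a neuronal log2 response of -2.85 and a non-neuronal response of 0.17. Ribosomal protein genes had a median of -0.50 over 40 members. The 15 mitochondrially encoded genes had a median of -0.68, which was 0.61 without the 2 libraries rich in mitochondrial counts. The median of all genes was 0.04, and it was 0.28 with scaling by library size only and 0.34 without those 2 libraries, so list medians of those fits are read against these values. The signs of the medians of cholesterol synthesis, pan-neuronal, receptor, fatty acid oxidation, phase II, acute-phase, interferon, p53, epithelial and endothelial lists were the same under all 4 other scalings and transformations, without those 2 libraries, and with each library left out, whereas the smooth muscle median was 0.06 with library size only.

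**Figure D4:**
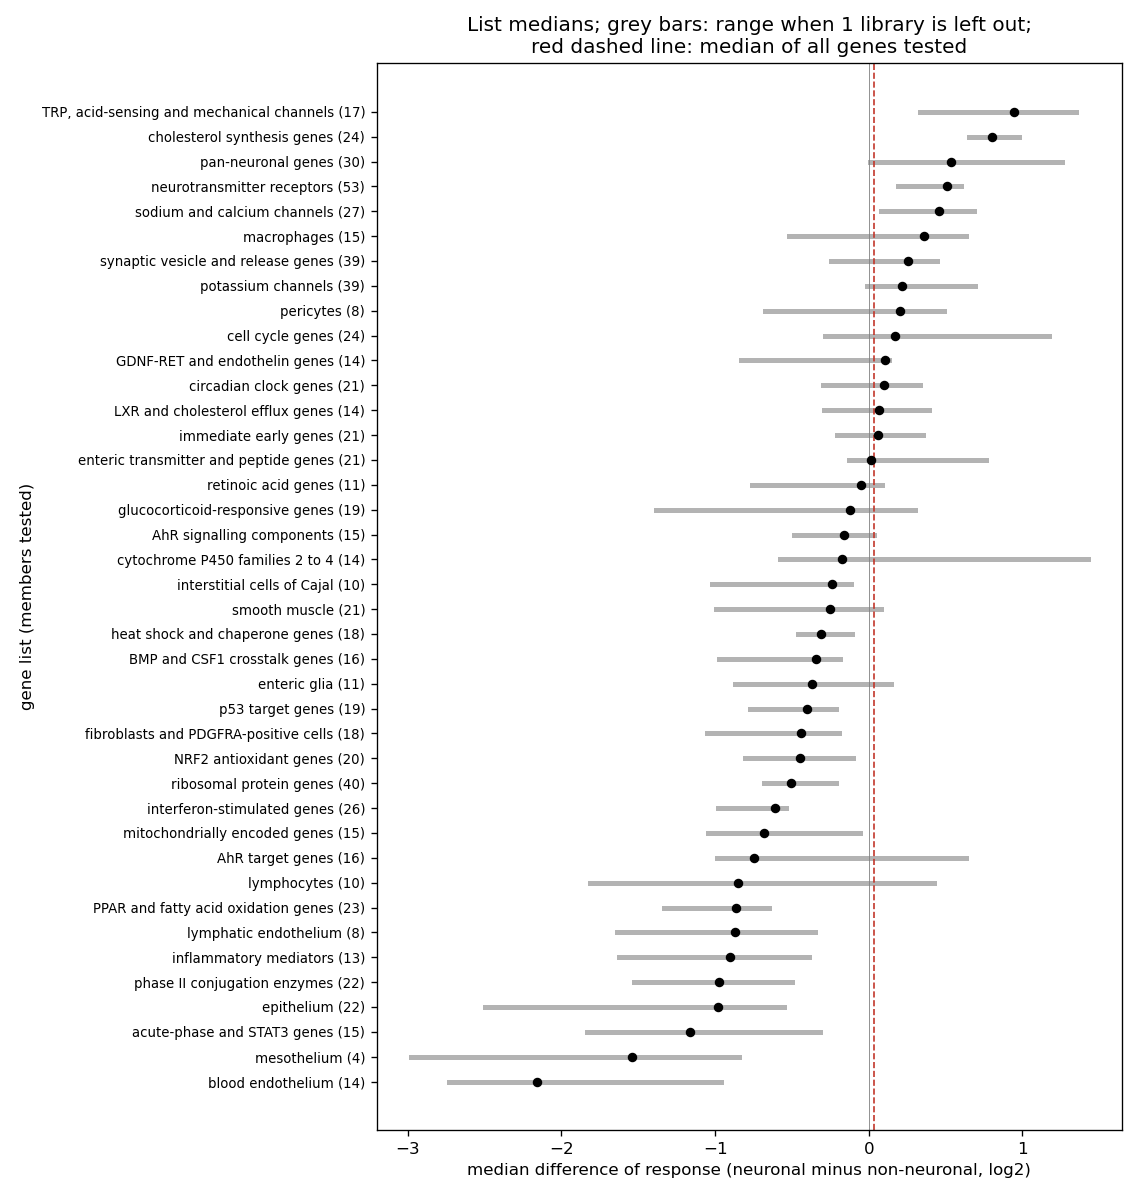
Median log2 difference of response (x axis) for each gene list (y axis), with the range over fits that leave out 1 library each, beside the median of all genes tested (0.04, vertical line). Cholesterol synthesis and several neuronal lists lie to the right, and endothelial, epithelial, acute-phase and conjugation lists to the left.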

How the data were processed

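RNA of sorted nuclei was measured in 16 libraries of 4 groups, which were taken from the labels. Per the labels' protocols, the Ovation RNA-Seq System V2 amplified the nuclear RNA, 7 PCR cycles completed each library, and single-end reads of 75 bp were taken. The authors deposited an RSEM expected count for each of 51912 genes in each library. These values are not scaled to library size. The submitters' processing notes name RSEM 1.3.0, STAR 2.5.2, DESeq2 1.10.1 and GRCm38; the annotation release, and whether counting used strand, are not given there. RSEM divides reads that fit several genes, so genes with near-identical copies carry uncertain counts. Overlaps with genes on the other strand are not all named above. Ahr, Shank1, Svep1, Lims2, Naip1 and Plbd1 are among the further genes with such an overlap. In the deposited headers the project is named for an AhR knockout study, without explanation, although every label gives agonist or control. Symbols and positions come from GENCODE M21 for 51633 gene identifiers, and 279 had none.

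Expected counts were rounded to whole numbers. Genes were filtered with filterByExpr by group (minimum count 10, minimum total 15), scaled by TMM and fitted with 1 coefficient per group over all 16 libraries in edgeR 4.0.16 (R 4.3.3, limma 3.58.1), using the robust quasi-likelihood F-test (two-sided). A gene was called when its Benjamini-Hochberg adjusted p, over all genes tested, was under 0.05. The common biological coefficient of variation was 0.913. AhR genes were also compared by exact permutation on log2 CPM with a prior count of 2. Replicates of a group differed by more than sampling noise (chi-square per degree of freedom at least 8.78). Counting intervals and floors, set at 3 counts over a group, cover counting error only. List medians are over the members that passed the filter; 40 lists were summarised. Alternatives were RLE and library-size scaling, DESeq2 1.42.0, limma-voom with and without quality weights, other filters, replicate numbers as a block, and libraries left out.

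Named genes are the AhR genes, the 10 genes with the smallest p in each direction (skipping symbols made of Gm plus a number, ending in Rik, or naming pseudogenes), and the 2 members with the smallest p in each list. The comparison, lists and genes were chosen with earlier results of these data known.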

Additional observations from a re-analysis of the deposited data

Results flagged for a closer look

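In 7 of the 97 groups of 4 libraries examined for the AhR genes and the genes of smallest p, the gap between 1 library and the nearest of the other 3, over the range of the group on the log2 scale, was above Dixon's critical value; chance marks about 1 in 20 groups. For Cyp1a1 and Tigd5 the library held 1 count beside 3 libraries at 0, where this ratio is always at its highest, so that rate does not apply to them. Cyp1a1 was at 0.299 CPM in non-neuronal corn oil library 3 and at 0 in the other 3. Ahrr was at 63.3 CPM in neuronal agonist library 4, beside 54.4 to 55.8 CPM. Ahr was at 146 CPM in neuronal agonist library 3, beside 69.6 to 77.6 CPM. Shank1 was at 20.7 CPM in non-neuronal corn oil library 1, beside 33.7 to 35.3 CPM. Plxna3 was at 392 CPM in neuronal agonist library 1, beside 99.9 to 116 CPM. Chodl was at 4.62 CPM in neuronal corn oil library 2, beside 1.05 to 1.31 CPM. Tigd5 was at 0.375 CPM in non-neuronal corn oil library 2 and at 0 in the other 3.

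The estimated difference between the Ahrr responses was 3.98 on log2 CPM with a prior count of 2 (exact permutation p = 0.006531), and all 4 neuronal agonist libraries lay above their controls. The null of that test is no response in either population, so a neuronal response alone can give a small p. The edgeR adjusted p of the difference over all genes was 0.432.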

How the results depend on the processing

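The count of 0 genes called for the difference was also 0 with RLE size factors, library size only, mitochondrial genes removed, a minimum count of 30, limma-voom, and limma-voom with quality weights. It was 110 with no filter, 103 with DESeq2, and 7 without the libraries over 30% mitochondrial. Leaving out 1 library each gave 0 to 9, the 9 without non-neuronal agonist replicate 3. For neuronal nuclei the count of 0 became 33 with no filter, 23 with DESeq2, 4 with quality weights and 1 without the libraries over 30% mitochondrial, and 0 to 1 with 1 library left out, the 1 without neuronal agonist replicate 4. For non-neuronal nuclei the count of 11 became 74 with library size only, 314 with no filter, 445 with DESeq2, 5 with limma-voom, 2 with quality weights, 21 without the libraries over 30% mitochondrial and 2 with the 8 libraries of the population alone, and 3 to 50 with 1 library left out. It fell under 8 without neuronal agonist replicate 2, 3 or 4, any neuronal corn oil replicate, or non-neuronal corn oil replicate 4. It passed 16 without neuronal agonist replicate 1, non-neuronal agonist replicate 1, 2 or 3, or non-neuronal corn oil replicate 1 or 3. The cause was not tested. The exact permutation test put 1 AhR gene under 0.05 in each of its 3 settings.

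Whether same-numbered libraries of the 2 populations share mice is not given. Their correlations of deviations within a treatment ran from -0.0096 to 0.0737, with 0 of 8 over 0.1. Those of libraries with different numbers ran from -0.0577 to 0.0408. Of 16 libraries, 11 correlated best with their own number among the 4 of the other population, a hint from the data and not from the design. These values do not settle the pairing, and the main p-values take the libraries as unpaired. With the replicate block the difference had 0 calls (number) and 0 (treatment by number), neuronal nuclei 0 and non-neuronal nuclei 6.

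Of 2733 differences of 102 named genes under alternatives, 2668 kept their direction and side of the threshold, 47 passed it and 18 changed sign. Without the libraries over 30% mitochondrial the difference was 2.112 for Nqo1, 0.05713 for Lpcat3, 0.3992 for Arnt2, -0.2411 for Ahr, 1.03 for Anpep and 0.09829 for mt-Nd1. With single libraries left out, Nqo1 lay between -1.748 (without neuronal agonist replicate 1) and 1.481 (without non-neuronal agonist replicate 1), and Lpcat3 between -2.105 and 0.4526 without the same libraries. Without neuronal agonist replicate 3, Mcm2 was at -0.54, Ahr at -0.09167 and Il1b at -0.1401, and their highest values with 1 library left out were 10.18, 0.3869 and 6.2. Krt19 lay between -0.8001 (without neuronal agonist replicate 4) and 3.584. Krt18 was at 0.02484 with limma-voom and 0.3937 with quality weights. Kcna1 was at -0.5573 and -2.555 with these, at -1.606 with the replicate block (treatment by number), and between -5.628 (without neuronal agonist replicate 1) and 3.582 with 1 library left out. The cause was not tested.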

Other observations

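Some genes outside the naming rule were looked at after their values were seen. Gm16638, an antisense locus on chromosome 7, had the smallest p of the difference (unadjusted p = 1.26e-05): it was at 158.8 ± 16.6 CPM with agonist and 193.7 ± 24.6 CPM with corn oil in neuronal nuclei, while the non-neuronal levels were 0.752 ± 0.663 CPM with agonist and 15.8 ± 6.82 CPM with corn oil (SD, n = 4 each). It is annotated as antisense, and whether counting used strand is not stated.

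Kcnj12, an inward rectifier potassium channel, was at 18.1 ± 10.5 CPM with agonist and 4.47 ± 2.02 CPM with corn oil in neuronal nuclei. Its non-neuronal levels were 0.174 ± 0.347 CPM with agonist and 0.0939 ± 0.188 CPM with corn oil (SD, n = 4 each), at or under 3 counts in each library.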
